A study of Mus musculus with 2 samples.

Results

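miR-375, miR-7a and miR-7b are miRNAs of neuroendocrine cells, and their reads were compared here between whole brain of young and old mice. The 3 members, mmu-miR-375, mmu-miR-7a and mmu-miR-7b, were chosen by name and by their counts. Each name was tied to the tag, a distinct sequence with its number of reads, whose young and old counts equal those listed for that name, and all tags with the same first 18 nt were then added. They are 3 of 405 names of known miRNAs without a star, and a single tag held the pair of counts for each of them. Together they comprised 256 tags, with 17372 of 4523267 young reads and 16769 of 6658732 old reads. Because the counts of both ages chose the members, their ratios are given as a description, with no test.

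As background, a miRNA guides an Argonaute protein to mRNAs that pair with its seed, bases 2 to 8. miR-375 is abundant in pancreatic islets and in the pituitary and restrains hormone release, and miR-7 is enriched in islets, the pituitary and hypothalamic neurons. In brain, miR-7 is bound by the circular RNA CDR1as, which arises from the strand opposite the Cdr1 gene, and by the long noncoding RNA Cyrano, which directs the decay of miR-7.

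Small RNAs were sequenced from C57BL/6J males, mice of an inbred laboratory strain, with no treatment named in the labels. The young group was 5 months old and the old group 24 to 25 months. RNA of 2 brains per age was made into cDNA libraries that were then combined, so each age is 1 library of pooled animals and no difference has a replicate check. Genome-matched reads numbered 4523267 in the young library, with 372464 tags, and 6658732 in the old library, with 505732 tags.

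The counted tag of each member is shown first, since the whole comparison rests on it, with the seed in capitals.
mmu-miR-375: tTTGTTCGttcggctcgcgtga
mmu-miR-7a: tGGAAGACtagtgattttgttgt
mmu-miR-7b: tGGAAGACttgtgattttgttgt
The counted tags of miR-7a and miR-7b had the same 23 nt apart from A10T, counted from the 5′ end with the miR-7a base first, and therefore share the seed GGAAGAC. Among 1679 distinct names in the RefSeq table of mature mouse miRNAs (GRCm38.p6), miR-7a and miR-7b were the 2 with that seed. The seed of miR-375, TTGTTCG, is unrelated, and among the known miRNAs with a single counted tag it occurred in miR-375 alone. No name in the RefSeq table had this seed, and no mature entry for this strand of miR-375 was found there.

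RefSeq hairpins of all 4 genes were matched to the mouse genome NCBIM37 (mm9) by their whole sequence. The miR-375 hairpin lay at chr1:74947232-74947295 on the minus strand, outside annotated genes, 7515 bases from Cryba2 and 1350 bases from Ccdc108. miR-7a has 2 sources that give an identical mature sequence. Mir7-1 lay at chr13:58494140-58494247 on the minus strand, in an intron of Hnrnpk, the gene of an abundant RNA-binding protein, in the same orientation. Mir7-2 lay at chr7:86033163-86033259 on the plus strand, outside annotated genes, between Det1 and Aen. The miR-7b hairpin was at chr17:56382411-56382521 on the plus strand, also intergenic, between Dpp9 and Fem1a. The first 18 nt of miR-375 matched the genome perfectly at 1 position. Those of miR-7a matched at 3 positions and those of miR-7b at 2. Besides the hairpins these were chr19:20056653-20056670 for miR-7a and chr1:168728464-168728481 for miR-7b, where the match to the counted tag ended after 18 and 19 bases.

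The first question was how much of each member each age contained. miR-375 had 207 reads in the young library and 61 in the old library, summed over 22 tags. In rpm (RPM, reads scaled to all reads of the library), this was 45.8 (95% exact Poisson interval 39.7 to 52.4) in young and 9.16 (7.01 to 11.8) in old brain. The old level was thus 5.00-fold lower (3.74 to 6.76), a log2 ratio of -2.32 (exact binomial interval -2.76 to -1.90). In whole brain, fewer cells that make a miRNA and less of it per cell cannot be told apart. The intervals cover counting error only, since PCR reads without molecular identifiers are not independent molecules, and they say nothing of the spread between mice.

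miR-7a, the most abundant of the members, had 12005 young and 12921 old reads in 148 tags. This corresponded to 2654 rpm (2607 to 2702) in young and 1940 rpm (1907 to 1974) in old brain, 1.37-fold lower in old (log2 ratio -0.45, interval -0.49 to -0.42). miR-7b had 5160 young and 3787 old reads in 86 tags. Its level was 1141 rpm (1110 to 1172) in young and 569 rpm (551 to 587) in old brain, 2.01-fold lower (log2 ratio -1.004, interval -1.07 to -0.94). In both libraries the order was miR-7a, miR-7b, miR-375, and no intervals overlapped, between members or between ages. Read numbers of different miRNAs also carry differences in adapter ligation, so this is an order of reads.

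**Figure D1:**
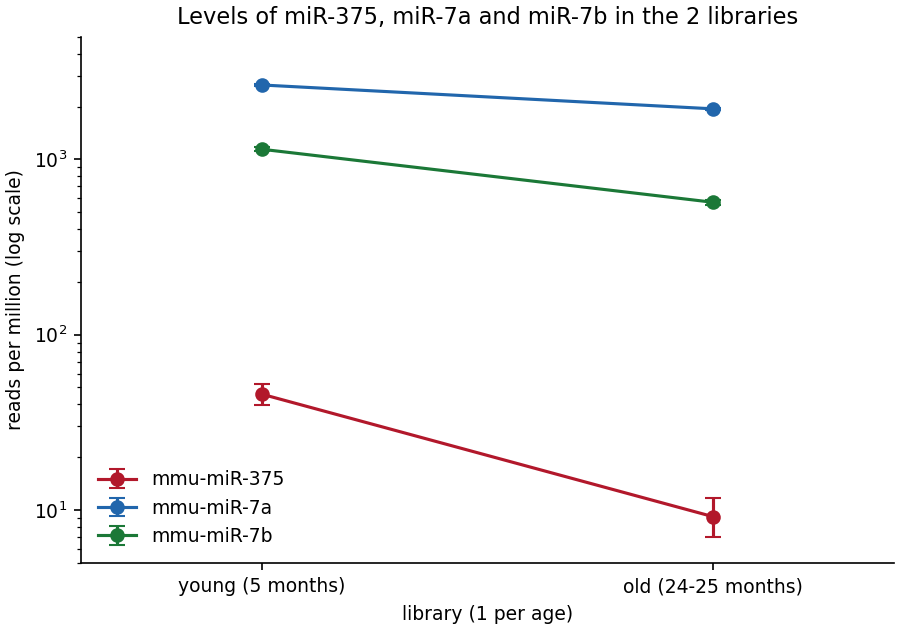
Level in rpm (log axis) of mmu-miR-375, mmu-miR-7a and mmu-miR-7b in the young and the old library, 1 library per age. Points are sums over tags with the same first 18 nt and bars are 95% exact Poisson intervals. The line of miR-375, from 45.8 to 9.16, is the steepest, and that of miR-7a, from 2654 to 1940, is the flattest.

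These ratios were then placed among known miRNAs measured in the same way. This background comprised 167 distinct 18-nt starts of names without a star whose pair of counts was held by a single tag, with at least 100 reads over both libraries. Its median log2 ratio was -0.59, and it ran from -2.32 to 1.12. The lowest value was that of miR-375, so that miR-375 had rank 1 of 167 from the lowest, miR-7b rank 44 and miR-7a rank 99. Without the minimum of 100 reads, 1 of these starts lay below it, miR-1964-3p with 66 and 17 reads (log2 ratio -2.52, interval -3.38 to -1.73), and miR-375 had rank 2 of 168. Of the 405 names without a star, 173 had a single tag, and the other names had no rank of their own. By number of reads, miR-375 had rank 147 in young and 166 in old brain. The ranks of the miR-7 members barely moved, from 35 to 34 for miR-7a and from 56 to 57 for miR-7b.

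Relative to the median of the known miRNAs, miR-375 was at -1.74, miR-7b at -0.42 and miR-7a at 0.13 (log2). The sign for miR-7a therefore depends on the scale. By total reads it was lower in old brain (-0.45), while with DESeq2 size factors it was higher (0.13) and with edgeR TMM factors higher still (0.21). The other members were lower in old brain on each of these scales, miR-375 at -1.74 and -1.66 and miR-7b at -0.42 and -0.34. let-7 and miR-98 starts held 1542729 young and 3263797 old reads, and with these taken out of the depth the log2 ratios were -1.95 for miR-375, -0.63 for miR-7b and -0.082 for miR-7a.

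At least 2-fold lower in old brain were miR-375 and miR-7b, 2 of the 3 members. Of the 167 known miRNAs, 44 (26.3%) were at least 2-fold lower and 2 (1.2%) at least 2-fold higher, and since the members were chosen by these same counts nothing is read from the difference. With TMM factors the split was 5 lower and 13 higher, with DESeq2 size factors 7 and 11, and without let-7 and miR-98 14 and 9. On these scales miR-375 was the member past 2-fold and miR-7b was not. Just inside 2-fold by total reads were miR-7b itself and miR-433 (log2 ratio -1.02), and just outside were miR-129-1-3p/miR-129-2-3p (-0.98) and miR-101a (-0.94). miR-7b lost this place in 3 of 5 other choices of tags, at -0.99 by its counted tag alone and at -0.98 both by hairpin match over the whole length and with 1 other or undetermined bases allowed.

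**Figure D2:**
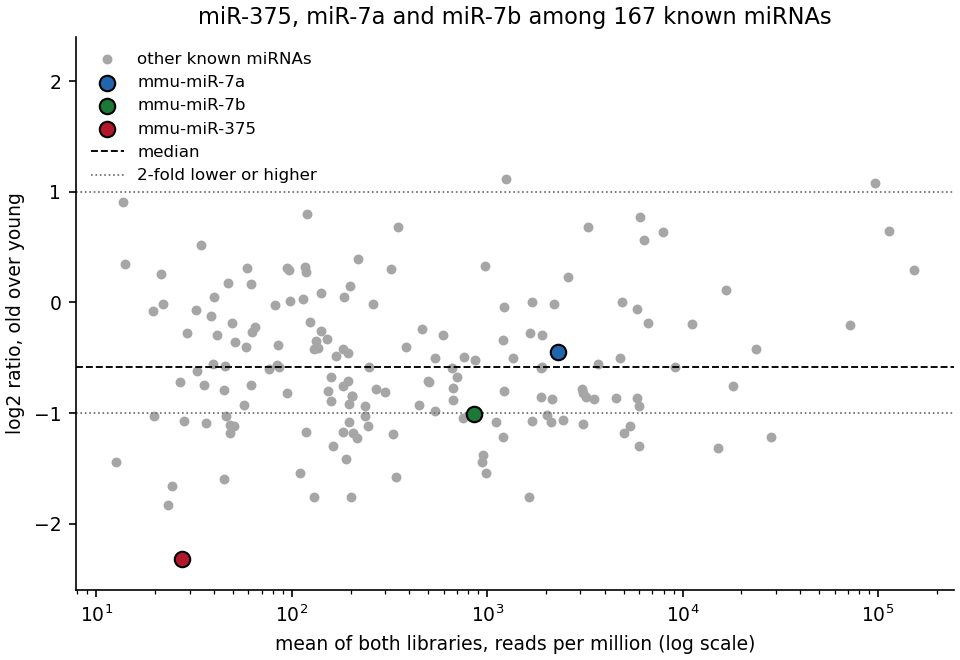
Log2 ratio of old over young (vertical axis) against the mean of both libraries in rpm (horizontal log axis) for 167 known miRNAs. The dashed line is the median of -0.59, and dotted lines mark 2-fold. miR-375 is the lowest point, at -2.32 and a low level, miR-7b lies on the lower 2-fold line and miR-7a lies above the median.

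The libraries also differed with base composition, which sets miR-375 apart from miR-7. GC content of the first 18 nt was 55.6% for miR-375 and 33.3% for both miR-7 members. Over the 167 known miRNAs the fitted log2 ratio changed by -0.35 for each 10 percentage points of GC. Among the 18 known miRNAs with the GC content of miR-375, the median log2 ratio was -1.05, and miR-375 had rank 1 from the lowest. Among the 15 with that of miR-7, the median was -0.45, miR-7b had rank 2 from the lowest and miR-7a rank 8. A straight line on GC content was then taken out, and its level at the median GC content of 44.4% was added back. The values moved in this way were -1.93 for miR-375, -1.39 for miR-7b and -0.84 for miR-7a. They are ratios at the median GC content, not distances from the line. The part of base composition in the difference of each member was not tested beyond this line.

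The pair of miR-7 members allowed a comparison within each library, in which depth cancels and GC content is equal. For each miR-7a read there were 0.430 miR-7b reads in young and 0.293 in old brain, a log2 difference of -0.55 (counting SE 0.036). The shift was found at each tag length with many reads. It was -0.47 (SE 0.10) at 22 nt, -0.51 (SE 0.065) at 23 nt and -0.55 (SE 0.052) at 24 nt, against -0.99 (SE 0.36) at 20 nt and -0.95 (SE 0.21) at 21 nt. At 19 nt, with 25 young and 18 old miR-7b reads, the value was -0.035 (SE 0.53) and a shift of the same size was not detectable at this depth. Depth also cancels, but GC content is not equal, between miR-375 and miR-7a. Their ratio was 0.0172 in young and 0.00472 in old brain, a log2 difference of -1.87 (SE 0.21). Moved along the GC line to the median GC content, their log2 ratios were -1.93 and -0.84, which lie closer together.

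Since a single base separates miR-7a from miR-7b, the other bases at position 10 were counted as well. In tags that otherwise had the miR-7 start, C was found in 21 young and 18 old reads, or 0.122% and 0.108% of reads at that position. G was found in 9 and 8 reads (0.0523% and 0.0478%). The miR-7b base made up 30.0% in young and 22.6% in old brain. How often A is misread as T was not measured, so the part of misread bases in miR-7b was not tested.

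The known miRNAs nearest to each member in log2 ratio were named by a fixed rule, over 2 libraries only. For miR-375 they were miR-3095-3p (-1.83), miR-129-5p (-1.76) and miR-770-3p (-1.76), so the nearest differed from it by 0.49. With 164 and 68 reads, miR-3095-3p has a counting SE of 0.21, so it and miR-375 did not differ beyond counting error. For miR-7a they were miR-132 (-0.45), miR-543 (-0.42) and let-7i (-0.42). miR-433 (-1.02), miR-139-5p (-1.02) and miR-129-1-3p/miR-129-2-3p (-0.98) were nearest to miR-7b. Known miRNAs next to the members in read rank of the young library did not share their ratios. Beside miR-375 stood miR-434-5p (213 and 213 reads, log2 ratio -0.56) and miR-503 (206 and 248 reads, -0.29). Beside miR-7a stood miR-433 (-1.02) and miR-26a (0.68), and beside miR-7b miR-206 (-0.042) and miR-22 (-0.52).

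The 3′ ends of the members were examined next. For miR-7a and miR-7b the most abundant tag was 1 nt longer than the counted tag. These tags are shown because they hold more of the miR-7 reads than the named form does.
most abundant miR-7a tag: tGGAAGACtagtgattttgttgtt
most abundant miR-7b tag: tGGAAGACttgtgattttgttgtt
The 24-nt miR-7a tag had 5996 young and 6673 old reads, against 3561 and 3753 for the counted 23-nt tag. The 24-nt miR-7b tag had 2348 and 1783 reads, against 1608 and 1190. Tags of 24 nt made up 51.4% of young miR-7a reads (exact binomial interval 50.5% to 52.3%) and 52.8% of old ones (51.9% to 53.6%). For miR-7b the shares were 46.7% (45.3% to 48.1%) and 48.3% (46.7% to 49.9%). In contrast, miR-375 was centred on its counted length of 22 nt, with 74.4% of young reads (67.9% to 80.2%) and 75.4% of old reads (62.7% to 85.5%). Mean lengths were 23.31 and 23.32 nt for miR-7a, 23.24 and 23.26 nt for miR-7b, and 21.96 and 22.05 nt for miR-375, young and old, and so were nearly equal at both ages.

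**Figure D3:**
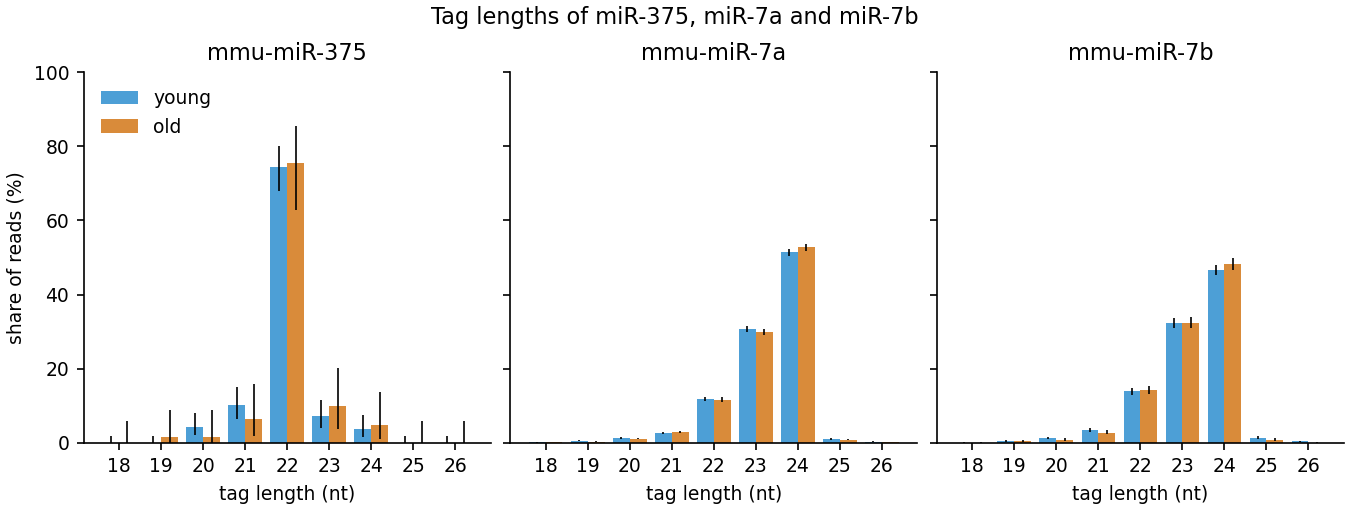
Share of the reads of mmu-miR-375, mmu-miR-7a and mmu-miR-7b (vertical axis, percent) at each tag length from 18 to 26 nt in the young and old libraries. Bars are shares and lines 95% exact binomial intervals. miR-375 peaks at 22 nt and both miR-7 members at 24 nt, at either age.

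By total reads, each member was lower in old brain in more than 1 of its forms. For tags that matched the hairpin over their whole length, log2 ratios of miR-7a were -0.47 at 22 nt, -0.48 at 23 nt and -0.40 at 24 nt. The corresponding values of miR-7b were -0.94, -0.99 and -0.96. For miR-375 they were -2.65 (interval -4.68 to -1.03) at 21 nt, from 17 and 4 reads, and -2.28 (-2.85 to -1.74) at 22 nt, from 122 and 37 reads.

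Bases at the 3′ end that the hairpin does not encode, here up to 3 nt, were counted as additions. Such bases can come from tailing, from trimming followed by tailing, or from misread bases. They were far more frequent in miR-375 than in miR-7. For miR-375, 58 of 207 young reads (28.0%, interval 22.0% to 34.7%) and 18 of 61 old reads (29.5%, 18.5% to 42.6%) carried them, and T alone accounted for 19.8% and 19.7% of reads. The most abundant such tags are shown with the unencoded base in capitals.
miR-375 with T for its last base: tttgttcgttcggctcgcgtgT
miR-375 with T added: tttgttcgttcggctcgcgtgaT
miR-7a with A added: tggaagactagtgattttgttgttA
miR-7b with A added: tggaagacttgtgattttgttgttA
These tags had 22 and 5 reads, 9 and 4 reads, 51 and 48 reads, and 39 and 14 reads in the young and old libraries, in the order shown. In the first of them the last base may be an addition to a shortened end or a misread base, which cannot be told apart from the tag alone. Additions were found in 3.18% of young miR-7a reads (2.87% to 3.51%) and 2.88% of old ones (2.60% to 3.18%). For miR-7b the shares were 3.86% (3.35% to 4.42%) and 2.96% (2.44% to 3.55%), and A was the base most often added to both. Of 123 known miRNAs with at least 1000 reads, 107 had a hairpin in the table, and their median share was 15.4% in young and 17.2% in old brain. Their upper quartile was 26.3% and 28.2%, close to the shares of miR-375, which had too few reads to be among them. Counted from the highest of these, miR-7a had rank 105 and miR-7b rank 102 in young brain, and rank 106 and 105 in old brain. The share was thus low in miR-7 at either age, and the intervals of both ages overlapped for miR-7a and for miR-7b. Of the 107 known miRNAs, 24 had a lower share in old than in young brain, miR-7a and miR-7b among them.

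The 5′ ends, which set the seed, were uniform in miR-7. Of the tags that matched Mir7-1 on the miR-7a arm, 99.7% of young and 99.6% of old reads began at the start of the counted tag, and the values for miR-7b were 99.8% and 99.6%. For miR-375 the share was 91.9% (86.6% to 95.6%) in young and 95.6% (84.8% to 99.5%) in old brain. A start 1 base further in was found in 7 young and 2 old miR-375 reads, and a start 1 base earlier in 4 and 0.

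The partner strand of a hairpin is usually degraded, and here it also tells the miR-7a genes apart. The RefSeq partner strands are given for that reason, with bases 2 to 8 in capitals.
mmu-miR-7a-1-3p: cAACAAATcacagtctgccata
mmu-miR-7a-2-3p: cAACAAGTcccagtctgccaca
mmu-miR-7b-3p: cAACAAGTcacagccagcctca
mmu-miR-375-5p: gCGACGAGcccctcgcacaaac
Tags with the first 18 nt of miR-7a-1-3p had 30 young and 35 old reads, those of miR-7a-2-3p 9 and 6, and those of miR-7b-3p 5 and 7. No read of miR-375-5p was found, which allows up to 0.663 rpm in young and 0.451 rpm in old brain at a floor of 3 reads. Partner strands made up 0.324% of miR-7a reads of both arms in young (0.230% to 0.442%) and 0.316% in old brain (0.227% to 0.429%). For miR-7b they were 0.0968% (0.0314% to 0.226%) and 0.185% (0.0742% to 0.380%). The intervals of both ages overlapped for each of them.

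Mir7-1 supplied most of the reads that could be assigned to a miR-7a gene. It held 76.9% (60.7% to 88.9%) of miR-7a partner strands in young and 85.4% (70.8% to 94.4%) in old brain. A separate estimate came from 25-nt miR-7a tags, whose last base differs between the genes and is shown in capitals.
25-nt tag of Mir7-1: tggaagactagtgattttgttgttT
25-nt tag of Mir7-2: tggaagactagtgattttgttgttG
The Mir7-1 tag had 37 young and 26 old reads and the Mir7-2 tag 10 and 8, or 78.7% (64.3% to 89.3%) and 76.5% (58.8% to 89.2%) for Mir7-1. An added T or G would give the same tags, so these shares may also contain tailing. A change in the balance of the 2 genes was not detectable at this depth.

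Next, the RNAs that bind miR-7 were examined, as far as small RNA reads allow. The complement of the miR-7 seed, GTCTTCC, was searched on both strands of the Cdr1 locus, chrX:58436421-58438733 in NCBIM37, and of 1700020I14Rik, chr2:119420033-119433238, the older symbol of Oip5os1 (Cyrano). On the plus strand of the Cdr1 locus, opposite the annotated gene, it occurred 112 times in 2313 bases, and it did not occur on the annotated strand. Of 70042 other windows of this length on the same chromosome, 27.4% held it on either strand, with at most 10 copies on 1 strand. In 13206 bases of 1700020I14Rik it occurred 2 times on the annotated strand and not on the opposite one, and 88.1% of 13499 windows of that length on chromosome 2 held it. A match to these letters is a description and does not show binding.

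Each copy was extended along the 24-nt miR-7a tag, with up to 4 unpaired extra bases allowed on the side of the site. The best site of 1700020I14Rik is shown under the full complement of miR-7a, and that of the Cdr1 locus follows, with paired bases in capitals.
complement of miR-7a: aacaacaaaatcactagtcttcca
site in 1700020I14Rik, chr2:119427872-119427897, plus strand: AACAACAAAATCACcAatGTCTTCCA
site opposite Cdr1, chrX:58436859-58436883, plus strand: tcCAgaAAAATatCcAgGTCTTCCA
The site in 1700020I14Rik paired with 23 of the 24 bases of miR-7a and had 2 extra bases. The other site there paired with 12. Of the 112 sites opposite Cdr1, the best paired with 17 bases and the median was 15, so no site opposite Cdr1 paired as completely as the best site of 1700020I14Rik. The 7 seed letters pair by the search itself, and the best placement of the extra bases was kept for each site. Many extended sites opposite Cdr1 also overlap the next copy. How many bases would pair by chance was not tested.

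Small RNA reads that matched these loci were counted too. Tags that matched the Cdr1 locus had 0 reads on the annotated strand and 1 young and 2 old reads on the opposite strand. On the annotated strand of 1700020I14Rik, 276 young and 172 old reads matched, and 30 and 30 remained without tags that begin with a run of a single base. The libraries hold RNA of small size, so the levels of the long RNAs were not measured. miR-671-5p, which directs the cleavage of CDR1as, had 31 young and 24 old reads, a log2 ratio of -0.93 (-1.76 to -0.11) by total reads and of -0.27 (-1.10 to 0.55) with TMM factors.

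The name neuroendocrine was checked against miRNAs of endocrine and epithelial tissue, a list that includes miRNAs of the pituitary. Of its 8 members, 7 had reads, and 2, miR-182 and miR-200a, had at least 100. miR-182, the most abundant, had 184 young and 205 old reads (log2 ratio -0.40, -0.70 to -0.11), and its sign depends on the scale (0.26, -0.036 to 0.55, with TMM factors). miR-200a had 121 and 101 reads (-0.82, -1.21 to -0.43, and -0.16, -0.55 to 0.23, with TMM factors). With fewer reads, miR-183 (18 and 43 reads, 0.70, -0.13 to 1.58) and miR-200b (13 and 27 reads, 0.50, -0.51 to 1.57) had values above 0 by total reads, and miR-429 (16 and 11 reads, -1.10, -2.35 to 0.10) and miR-96 (13 and 9 reads, -1.09, -2.50 to 0.25) had values below 0. All 4 intervals include 0. With TMM factors those of miR-183 (1.36, 0.53 to 2.24) and miR-200b (1.16, 0.15 to 2.23) lie above 0, and those of miR-429 (-0.44) and miR-96 (-0.43) include it. miR-141, a defining member, had 0 reads in both libraries, and miR-200c had 2 and 1. The summed level of the list was 81.1 rpm in young and 59.6 rpm in old brain, a log2 ratio of -0.44 by total reads and of 0.22 with TMM factors. The log2 ratio of miR-375 (-2.32) was lower than that of the list's sum, a difference that no choice of depth changes. GC content is not equal between them, at 55.6% for miR-375 and 33.3% to 44.4% for the list. The parts of GC content and of endocrine tissue in the difference of miR-375 were not tested.

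miRNAs of neurons were compared with all known miRNAs, of which 133 of 167 (79.6%) were lower in old brain by total reads and 79 (47.3%) with TMM factors. Of 9 neuronal miRNAs, all with at least 100 reads, 8 were lower by total reads (5 with TMM factors), and 2 were at least 2-fold lower, against 26.3% of the known miRNAs, so these numbers lay near the background. The list had a median log2 ratio of -0.76 against -0.59 for all known miRNAs. The summed level of the list, led by miR-124, was 75146 rpm in young and 38289 rpm in old brain, a log2 ratio of -0.97 (-0.31 with TMM factors). miR-124, the most abundant neuronal miRNA, had 178300 young and 113206 old reads (-1.21). miR-129-5p had 1408 and 612 reads (-1.76), and miR-153, the exception, 200 and 333 (0.18, -0.080 to 0.44). miR-7b (-1.004) and miR-7a (-0.45) lay within the range of this list and miR-375 (-2.32) below it. The part of neuronal RNA in these differences was not tested.

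miRNAs of other cell types in dissected brain were listed as well, with values by total reads unless TMM factors are named. For oligodendrocytes the list, miR-219-5p and miR-338-3p, summed to 1256 rpm in young and 640 rpm in old brain, a log2 ratio of -0.97 (-0.31 with TMM factors). miR-219-5p, the more abundant of them, was at -1.04 and miR-338-3p at -0.71 (-0.049, -0.18 to 0.077, with TMM factors). miR-219-3p, named for the other arm, was not on the list. It had more reads, 49800 young and 48848 old (-0.59), so the sum depends on the strand listed. Of the choroid plexus pair, miR-204 had 304 young and 148 old reads (-1.60, and -0.94 with TMM factors), and miR-211 had 0 in both libraries. The muscle list was higher in old brain in sum, 7456 against 10868 rpm (0.54, and 1.20 with TMM factors), led by miR-1 (0.64), while miR-206 was at -0.042 and miR-133b had 9 and 6 reads. For red blood cells, all 3 members were lower by total reads, as were 79.6% of the known miRNAs, so this count lay near the background. They summed to 606 against 322 rpm (-0.91, and -0.25 with TMM factors), and miR-486, the most abundant, was at -0.93. Endothelial miR-126-5p and miR-126-3p were at -0.18 and 0.23, with sums of 66.3 and 62.3 rpm. With TMM factors both were higher in old brain, as were 52.7% of the known miRNAs. miR-143 of smooth muscle was at -0.87 (-0.21 with TMM factors), with 5892 and 3234 rpm. miR-133a and miR-145 were not analysed here. The part of these cell types in the differences of miR-375 and miR-7 was not tested.

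**Figure D4:**
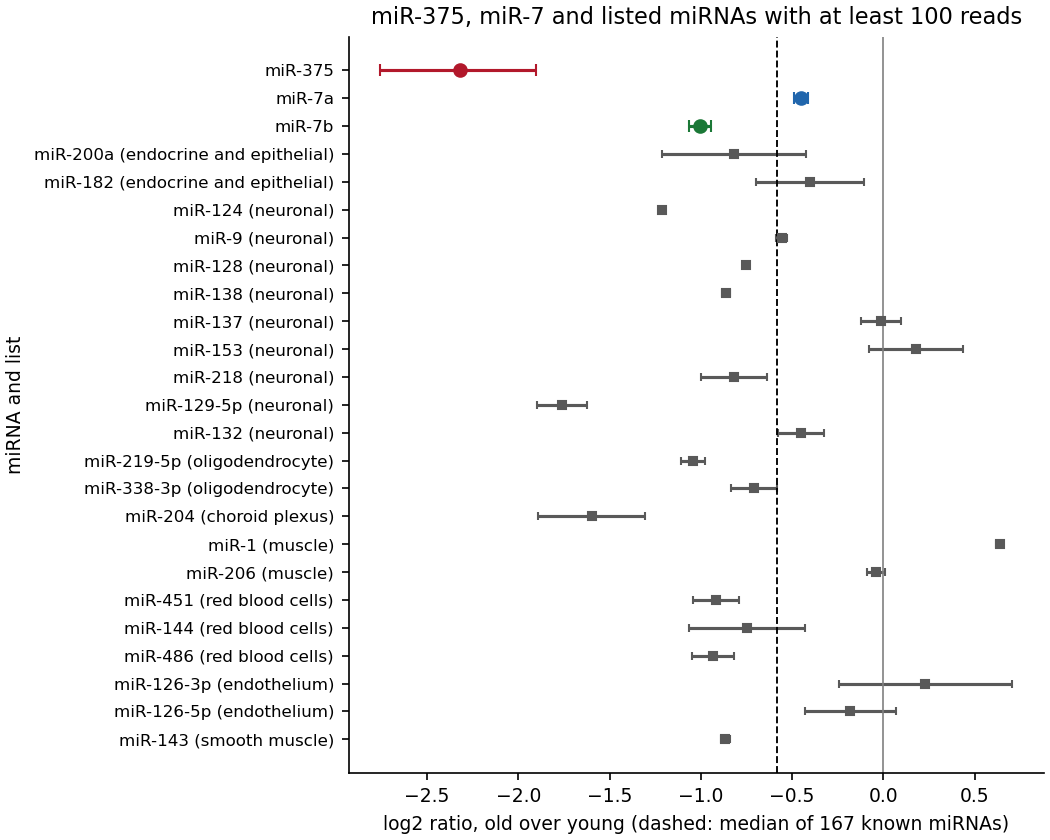
Log2 ratio of old over young (horizontal axis, by total reads) for miR-375, miR-7a and miR-7b (circles) and for listed miRNAs with at least 100 reads (squares), with 95% exact counting intervals. The dashed line is the median of 167 known miRNAs, -0.59, and the solid line is 0. miR-375, at -2.32, lies below each listed miRNA, the lowest of which is miR-129-5p at -1.76.

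**Figure D5:**
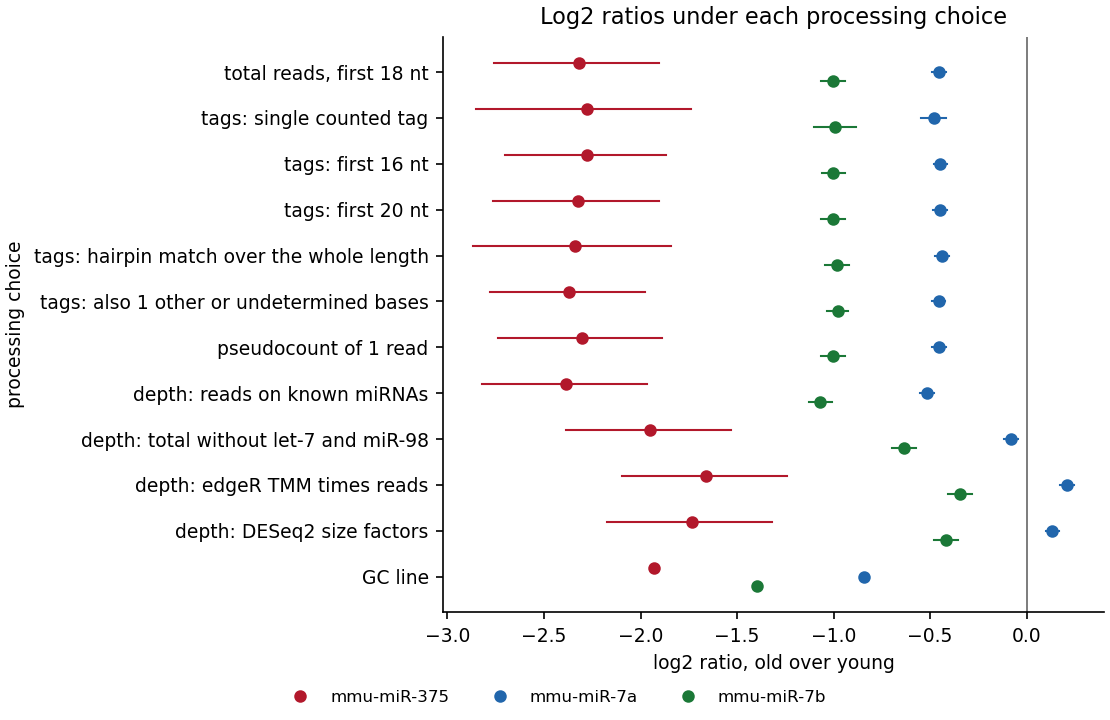
Log2 ratio of old over young (horizontal axis) for mmu-miR-375, mmu-miR-7a and mmu-miR-7b under each processing choice (vertical axis), with 95% exact counting intervals where they apply. The choice of tags moves the values little, from -2.37 to -2.28 for miR-375, while the depth moves them more. miR-7a is above 0 with TMM factors (0.21) and DESeq2 size factors (0.13).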

How the data were processed

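Per the labels and the study's methods, the authors trimmed adapters and matched reads to mm9, and the deposited value of a tag is its read count, not normalized. Each library is a mix of cDNA from 2 brains. Here reads were summed over tags of at least 18 nt with the same first 18 nt and divided by total reads (4523267 young, 6658732 old). Intervals at 95% are exact Poisson and Clopper-Pearson intervals (Python 3.11.15, scipy 1.17.1). The computation of the ratio intervals was checked on simulated Poisson counts, which hold no PCR duplicates and no spread between mice. With 1 library per age no test was made. Scaling factors came from edgeR 4.0.16 and DESeq2 1.42.0 in R 4.3.3. Tags were compared with RefSeq hairpins (GRCm38.p6), and positions were found by perfect match to NCBIM37. Named miRNAs are the members, their partner strands, those sharing a seed, the 3 nearest in log2 ratio, the 2 nearest in young rank, those beside the 2-fold limit, paralogue pairs that differ more than miR-7 at equal GC content, those below miR-375 without the minimum, and the lists. miR-219-3p is named beside the oligodendrocyte list. The members and lists were chosen with earlier results of these data known. Alternatives covered the tags counted, a pseudocount of 1 read, depth, GC content, and the background's miRNAs and minimum of reads.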

Additional observations from a re-analysis of the deposited data

How the results depend on the processing

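The 6 ways of choosing tags or adding 1 read kept the direction of each member's log2 ratio and left it within the main interval, though 3 took miR-7b from just past 2-fold to just short of it (-0.98 at the highest). They also kept the direction and size of both within-library ratios, which ran from -0.55 to -0.51 for miR-7b to miR-7a and from -1.92 to -1.80 for miR-375 to miR-7a, before any allowance for GC content. The depth mattered more. With reads on known miRNAs as depth, miR-7a was at -0.52 and miR-7b at -1.07, and 46 known miRNAs were at least 2-fold lower. Without let-7 and miR-98, miR-7a was at -0.082 and miR-7b at -0.63, with 14 known miRNAs lower and 9 higher. With TMM factors, miR-375 was at -1.66, miR-7b at -0.34 and miR-7a at 0.21, with 5 lower and 13 higher. With DESeq2 size factors they were at -1.74, -0.42 and 0.13, with 7 lower and 11 higher. The GC line gave -0.84 for miR-7a and -1.39 for miR-7b, with 24 lower and 0 higher. The RefSeq starts gave 66 lower and 4 higher of 241. The depths shift all miRNAs by 1 constant, the GC line shifts each by its base composition, and the RefSeq starts add miRNAs. Which depth is right was not tested. miR-375 had rank 1 from the lowest also after the GC line and by counted tags, but rank 2 of 168 without the minimum of reads. The GC line moved miR-7b from rank 44 to 6 and miR-7a from 99 to 47.

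Depth is a limit for miR-375, which had the fewest reads of the members (61 in the old library). It is also a limit for partner strands, each with at most 35 reads per library. One library of pooled mice per age gives no spread between animals, so no interval here covers biological variation, and neither dissection nor library preparation can be told apart from age. Counting additions of 1 nt alone lowered the shares, to 17.9% and 18.0% for miR-375, 1.74% and 1.63% for miR-7a and 2.23% and 1.51% for miR-7b, by construction. Undetermined bases occurred in 4.57% of young and 1.07% of old reads.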

Other observations

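miR-7a and miR-7b are close paralogues with unequal ratios, and other such pairs were looked at in the same way. Among known miRNAs with at least 1000 reads, 32 pairs differed by 1 or 2 bases in the first 18 nt, 10 of them with equal GC content. Both numbers, and the medians below, include the miR-7 pair itself, and some miRNAs, such as those of let-7, occur in more than 1 pair. The difference in log2 ratio of the miR-7 pair was 0.55. Over the 10 pairs with equal GC content the median difference was 0.51, and 2 pairs had a larger one than miR-7, miR-376b and miR-376a (0.81) and miR-100 and miR-99a (0.61). Over all 32 pairs the median was 0.44 and 7 had a larger difference. Larger differences thus also occurred in other pairs of near-identical miRNAs.

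miR-375 had the lowest log2 ratio of the 167 known miRNAs with at least 100 reads. It also carried more unencoded 3′ ends than miR-7, at a share near the upper quartile of known miRNAs, so the ratio was computed for each kind of read. The log2 ratio was -2.25 (-3.10 to -1.46) for miR-375 reads with an addition, from 58 young and 18 old reads, and -2.34 (-2.87 to -1.84) for fully encoded reads, from 148 and 43. For miR-7b the log2 ratio was -1.39 (-1.73 to -1.05) with an addition, from 199 and 112 reads, and -0.98 (-1.05 to -0.92) without, values whose intervals all but touch, while the share of miR-7b reads with an addition had overlapping intervals at both ages, and a difference between the 2 kinds of read was not tested. For miR-7a it was -0.60 (-0.81 to -0.39) with and -0.44 (-0.48 to -0.40) without an addition.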
